A study of Mus musculus with 33 samples.

Results

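The genes described here are 10 markers of activated, disease-associated microglia, given as a fixed list by symbol: *Trem2*, *Tyrobp*, *Clec7a*, *Axl*, *Itgax*, *Apoe*, *Cd68*, *Cst7*, *Spp1* and *Lgals3*. All 10 were found among the 41565 named entries of the deposited mouse hypothalamus table. They were followed in 33 bulk RNA-seq libraries of 2 dissected regions, the posterior hypothalamus (PH) and the preoptic area (POA). All mice were wild-type C57BL/6 females, ovariectomized (OVX) as adults, at 3 to 4 months old, and killed 14 days or 4 months later, or left intact and killed in diestrus. The PH was represented by 4 libraries from intact mice, 6 at 14 days and 6 at 4 months, and the POA by 5, 6 and 6. The titles of the control libraries call them sham, whereas another label and the study's methods call them intact, which is used here. The intact mice were taken before surgery, without a group of intact mice aged alongside the OVX mice, so surgery, time after OVX and age cannot be told apart. Each group has libraries labelled batch 1 and libraries labelled batch 2. In every group each of 12 neuronal, 12 astrocyte, 10 oligodendrocyte and 17 microglia markers was clearly measured in at least 1 library, at 2 times the floor of the table or more.

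Microglia are the resident macrophages of the brain. In the resting state they carry a signature that includes *P2ry12*, *Tmem119* and *Cx3cr1*. Around amyloid, degenerating myelin or dying neurons, and with age, they take up an activated program in which the lipid-sensing receptor TREM2, signaling through its adaptor TYROBP (also called DAP12), leads to higher levels of genes of lipid handling, lysosomes and phagocytosis, among them *Apoe*, *Cst7*, *Clec7a*, *Itgax*, *Axl*, *Spp1* and *Lgals3*. Microglia also respond to the loss of ovarian hormones, which is the setting of the study, whose question was how the hypothalamus changes with time after OVX. Several of the 10 genes are not particular to microglia in brain tissue: *Apoe* is made mainly by astrocytes, and *Axl* and *Spp1* are also expressed by other cells. In tissue RNA, a change in the number of cells and a change in the RNA per cell cannot be told apart.

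Among the PH libraries, *Trem2* and *Clec7a* were the pair whose residuals varied most alike, after group means and the covariate of the tests were removed. *Trem2* and *Cd68* reached an unadjusted *P* under 0.05 (limma) in both regions at 4 months. The promoters of these 3 genes are therefore shown. Each is the RefSeq window (GRCm38.p6) from 250 bases before to 50 after the start of the transcript, written 5′ to 3′ on the strand of the gene. Capitals mark GAGGAA, the core recognized by PU.1, the myeloid transcription factor encoded by *Spi1*, and TGANTCA, a site of the AP-1 type, each searched on both strands, and no matches of different motifs overlapped.
*Trem2* (chr17:48346151-48346450, plus strand): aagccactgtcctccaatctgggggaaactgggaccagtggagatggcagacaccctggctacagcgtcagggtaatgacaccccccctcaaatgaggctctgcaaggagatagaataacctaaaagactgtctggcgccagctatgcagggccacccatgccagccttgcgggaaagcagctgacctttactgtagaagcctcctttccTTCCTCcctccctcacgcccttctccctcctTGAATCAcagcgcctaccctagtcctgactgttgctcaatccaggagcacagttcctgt
*Clec7a* (chr6:129472730-129473029, minus strand): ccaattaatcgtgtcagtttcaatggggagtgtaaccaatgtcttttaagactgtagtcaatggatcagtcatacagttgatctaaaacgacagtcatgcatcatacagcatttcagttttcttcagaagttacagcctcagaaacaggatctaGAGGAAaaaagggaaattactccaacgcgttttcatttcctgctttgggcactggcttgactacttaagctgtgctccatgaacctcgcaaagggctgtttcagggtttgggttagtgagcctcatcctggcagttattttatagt
*Cd68* (chr11:69666121-69666420, minus strand): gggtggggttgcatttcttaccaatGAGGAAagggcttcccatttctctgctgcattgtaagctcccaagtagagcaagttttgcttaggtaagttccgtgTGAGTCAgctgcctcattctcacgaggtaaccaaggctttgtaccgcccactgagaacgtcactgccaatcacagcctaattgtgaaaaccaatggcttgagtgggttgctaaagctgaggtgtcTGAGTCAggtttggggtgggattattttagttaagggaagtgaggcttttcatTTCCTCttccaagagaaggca

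The *Trem2* window holds 1 match to each motif, that of *Clec7a* 1 match to GAGGAA, and that of *Cd68* 2 matches to each. Windows were found for 9 of the 10 genes, 13 windows in all, since *Clec7a*, *Apoe* and *Spp1* have more than 1. GAGGAA was present in 8 of the 13 windows, compared with 28.3% of 32851 mouse promoter windows of the same length. TGANTCA was present in 4 (*Trem2*, *Cst7*, *Itgax* and *Cd68*), compared with 7.81%. CACGTG, the E-box letters recognized by the MITF and TFEB family of lysosomal regulators, was present in 0, compared with 7.15%. Windows of the same gene share sequence, and a match is a description of the letters, not of binding.

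The genes lie at scattered loci (GRCm39, GENCODE M39), and all 10 are annotated as protein coding. *Trem2* spans 48653429 to 48661175 of chromosome 17 with 5 exons, *Clec7a* 129438554 to 129449742 of chromosome 6 with 5 exons, and *Cd68* 69555037 to 69557067 of chromosome 11 with 5 exons. *Tyrobp* (30113170 to 30117010), *Apoe* (19430034 to 19434947), *Axl* (25456535 to 25488329) and *Itgax* (127728668 to 127749829) are all on chromosome 7. *Lgals3* spans 47605208 to 47623624 of chromosome 14, *Spp1* 104582165 to 104589235 of chromosome 5, and *Cst7* 150412284 to 150420864 of chromosome 2.

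The deposited values are normalized expression signal on a linear scale, with a floor of 22.1 around which genes without measurable expression lie. This floor is the most common median of a gene across libraries, and single values can be lower, down to 9.94. Read totals cannot be recovered from them, so the depth of each library is unknown and no interval for counting error is given. To order the genes by level, the floor was subtracted from the median over all libraries of a region and the result divided by the length of the canonical transcript. On this per-kilobase scale *Apoe* stood far above the rest, at 23940 (PH) and 26713 (POA). *Tyrobp* (567 and 624), *Axl* (515 and 547), *Trem2* (258 and 313), *Spp1* (227 and 220) and *Cd68* (197 and 189) followed. *Clec7a* (55.4 and 65.9), *Lgals3* (53.4 and 51.6), *Cst7* (13.7 and 14.9) and *Itgax* (6.42 and 5.17) were the lowest. Neighbors in this order, such as *Clec7a* and *Lgals3* or *Tyrobp* and *Axl*, were close, and values of the regions are given side by side without comparison because it is not stated how the table was normalized across them. Genes entered the test if at least 4 PH or 5 POA libraries were at 2 times the floor or above. In each region 9 of the 10 genes were tested: 8 of them passed in every library, *Itgax* passed in 9 of 16 PH and 7 of 17 POA libraries, and *Cst7*, which reached that level in 3 of 16 and 1 of 17, was left out of the main test.

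**Figure D1:**
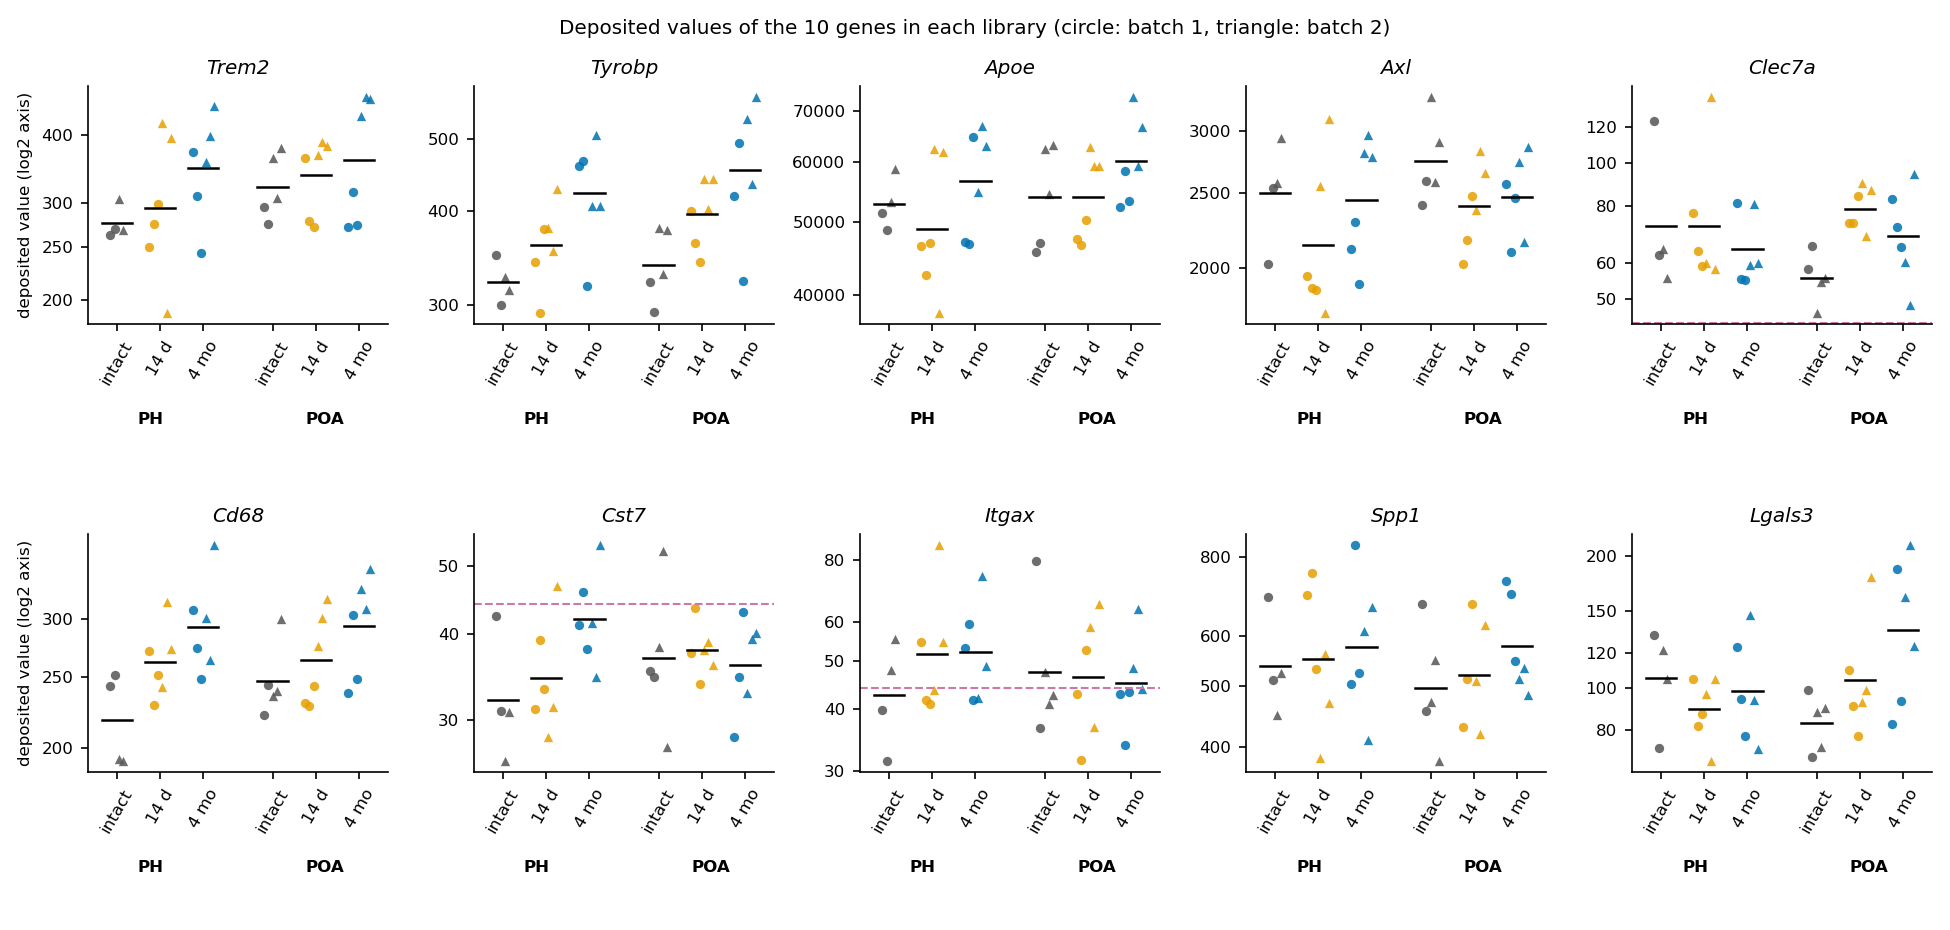
Deposited value (log2 axis, with a separate range in each panel) of each of the 10 genes in each library, by region and group, with circles for batch 1 and triangles for batch 2. Horizontal bars are the means of the log2 values, and the dashed line, drawn where it falls in the panel's range, is 2 times the floor. In the POA all *Clec7a* values at 14 days (68.7 to 90.0) lie above all intact values (46.4 to 65.3), and the 4-month *Tyrobp* values spread from 323 to 569.

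Before the results, 1 library has to be named. In the surrogate variable SV1, estimated within each region and used as the covariate of the tests, the PH library at 14 days, replicate 5, stood at 0.785, whereas the other PH libraries lay between −0.311 and 0.195. It held the lowest *Trem2*, *Apoe*, *Axl* and *Lgals3* values of its region and the highest *Clec7a* and *Itgax* values. Libraries of both regions fell by batch on SV1, apart from that one. The POA had 0.186 to 0.352 for batch 1 and −0.322 to −0.125 for batch 2. The other PH libraries had −0.0216 to 0.195 for batch 1 and −0.311 to −0.161 for batch 2. Levels of several of the 10 genes differed with the batch: *Trem2*, *Apoe* and *Axl* were higher in batch 2 in all 3 groups of both regions, and *Spp1* was lower in batch 2 in all of them.

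None of the 9 tested genes passed an adjusted *P* of 0.05 in either region at either time (limma with the Benjamini-Hochberg adjustment over all genes tested). Against this 0 of 9, the share of all genes called in either direction was 0% of 21994 in the PH at 14 days and 0.0318% at 4 months, and 0.00468% of 21364 in the POA at 14 days and 0.0936% at 4 months. For 4 months compared with 14 days it was 0 of 9 in both regions, compared with 0.00909% and 0.0281% of all genes. Calls by this test are thus few in the whole table. The study's own analysis, with DESeq2 and SV1, reported more differentially expressed genes in each of these comparisons. Why the numbers differ was not tested, so the 0 of 9 holds for this test only. The description below rests on the values themselves, on unadjusted *P* values and on the median of the 9 genes beside that of all genes.

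At 4 months, the fitted values of most of the genes were above those of intact mice, by modest amounts. An unadjusted *P* under 0.05 was reached by 5 of the 9 genes in the POA, all higher (*Tyrobp*, *Lgals3*, *Apoe*, *Cd68* and *Trem2*), where 4.1% of all genes did so in that direction, and by 3 of the 9 in the PH, all higher (*Cd68*, *Tyrobp* and *Trem2*), where 2.95% did. The fitted value was above 0 for 7 of the 9 in the POA (46.5% of all genes) and for 6 in the PH (47.2%). The median log2 fold change of the 9 genes was 0.25 in the POA and 0.12 in the PH, and that of all genes tested was −0.01 in both. The PH median moved with single libraries, from 0.0492 without intact replicate 3 to 0.217 without intact replicate 1, and was 0.059 in batch 1 alone and 0.143 in batch 2 alone. At 14 days the numbers were smaller: 2 of the 9 in the POA (*Clec7a* and *Tyrobp*, with 2.84% of all genes) and 1 of the 9 in the PH (*Trem2*, with 1.57%), and the medians were 0.14 and −0.01, with 7 of 9 (47.8% of all genes) and 4 of 9 (49.4%) above 0. All of these comparisons of a region share its intact libraries. With the replicate number as a block, an unadjusted *P* under 0.05 (limma) was found for 3 of the 5 POA genes at 4 months (*Tyrobp*, *Lgals3* and *Apoe*), for 2 of the 3 PH genes (*Cd68* and *Tyrobp*), and for none of those named at 14 days. That fit is an alternative only, since the numbers were not taken as pairs and some join libraries of different batches.

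**Figure D2:**
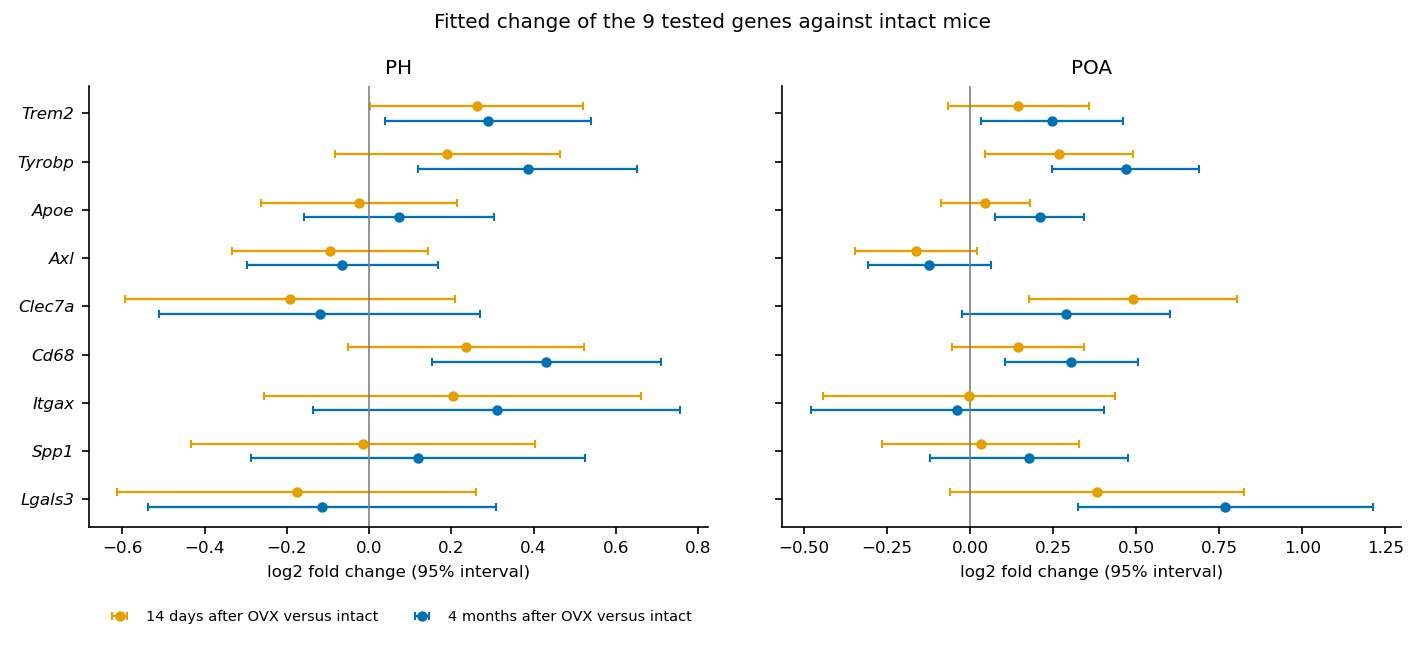
Fitted log2 fold change against intact mice of the 9 tested genes in both regions (orange, 14 days from surgery, blue, 4 months). Points are limma estimates with SV1 as covariate and bars are 95% intervals. In the POA at 4 months the intervals of *Trem2*, *Tyrobp*, *Apoe*, *Cd68* and *Lgals3* lie above 0, and in the PH those of *Trem2*, *Tyrobp* and *Cd68* do.

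*Tyrobp*, the signaling adaptor of TREM2 and other myeloid receptors, had the smallest *P* of the set. In the POA its deposited values were 322, 293, 380, 330 and 377 in the 5 intact libraries. At 14 days they ran from 342 to 442 with a median of 402, and at 4 months from 323 to 569 with a median of 464. Of the 6 libraries at 4 months, 5 lay above every intact library and the sixth, replicate 3 of batch 1, lay within their range. The log2 fold change at 4 months was 0.47 (SE 0.11, unadjusted *P* = 2.91e-04, adjusted *P* = 0.131), and *Tyrobp* was number 46 of 21364 genes by *P*. Without that library, the log2 fold change was 0.55 and the adjusted *P* was 0.0272, the only setting tried in which a gene of the set was called, and over all libraries left out in turn the adjusted *P* ranged from 0.0272 to 0.290. Within batches the mean log2 difference was 0.40 in batch 1 and 0.49 in batch 2. At 14 days the fitted log2 fold change was 0.27 (SE 0.11, unadjusted *P* = 0.0206, adjusted *P* = 0.799).

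In the PH, *Tyrobp* was at 350, 300, 326 and 314 in intact mice, at 292 to 429 (median 366) at 14 days and at 318 to 506 (median 434) at 4 months. Again 5 of the 6 libraries at 4 months lay above all intact libraries and 1, replicate 3, did not. The log2 fold change at 4 months was 0.39 (SE 0.13, unadjusted *P* = 0.00683, adjusted *P* = 0.617), and the within-batch differences were 0.34 and 0.45.

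*Trem2*, the receptor, was at 263, 269, 306 and 268 in the intact PH, at 189 to 421 (median 287) at 14 days and at 244 to 451 (median 364) at 4 months. At 4 months 5 of 6 libraries were above the intact range and 1 was below it. The log2 fold changes were 0.26 at 14 days (SE 0.12, unadjusted *P* = 0.0474, adjusted *P* = 1.00) and 0.29 at 4 months (SE 0.12, unadjusted *P* = 0.0260, adjusted *P* = 0.744). The value at 14 days depended on SV1, on which replicate 5, the library at 189, was the outlier. It was 0.0906 with batch in place of SV1, and the difference within batch 1, which does not hold that library, was 0.0425. With SV1 kept and replicate 5 left out, the value stayed near that of the main fit. Of the 6 libraries at 14 days, 2 lay above all intact ones and 2 below. In the POA, *Trem2* was at 296, 275, 363, 307 and 379 in intact mice, at 272 to 389 (median 366) at 14 days and at 271 to 469 (median 374) at 4 months, where 3 libraries lay above the intact range and 2 below it. The 4-month log2 fold change was 0.25 (SE 0.10, unadjusted *P* = 0.0258, adjusted *P* = 0.504). It was found in batch 2, where the within-batch difference was 0.39, compared with 0.00181 in batch 1.

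*Clec7a*, which encodes the phagocytic β-glucan receptor dectin-1, was the gene whose groups separated completely at 14 days. In the POA its values were 58.1, 65.3, 46.4, 54.5 and 55.4 in intact mice, 68.7 to 90.0 (median 78.8) at 14 days and 48.4 to 94.3 (median 68.5) at 4 months. All 6 libraries at 14 days lay above all 5 intact libraries, as in 0.267% of all genes tested, with a log2 fold change of 0.49 (SE 0.15, unadjusted *P* = 0.00380, adjusted *P* = 0.732). At 4 months 3 of 6 did, with a log2 fold change of 0.29 (SE 0.15, unadjusted *P* = 0.0674, adjusted *P* = 0.633), which was 0.166 without replicate 6 of that group and 0.0920 with the replicate block. In the PH the values were 124, 62.3, 64.3 and 55.7 in intact mice, 58.3 to 140 (median 61.8) at 14 days and 54.99 to 81.3 (median 59.7) at 4 months, and the groups overlapped at both times. The change at 14 days differed between the regions by −0.58 on the log2 scale, PH minus POA (SE 0.25, unadjusted *P* = 0.0274, adjusted *P* = 1.00), and by −0.374 without the first intact PH library, which held the 124. The median *Clec7a* value was 3.11 times the floor in the POA and 2.77 times in the PH.

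*Axl*, a receptor tyrosine kinase for the clearance of dying cells, had fitted changes below 0 in the POA at both times. Its values were 2411, 2585, 3320, 2583 and 2907 in intact mice, 2024 to 2825 (median 2424) at 14 days and 2095 to 2865 (median 2513) at 4 months, and no library of either OVX group was above the intact range. The log2 fold change at 4 months was −0.12 (SE 0.09, unadjusted *P* = 0.181, adjusted *P* = 0.739). In the PH it was −0.06 (SE 0.11, adjusted *P* = 0.964), with 0.0512 in batch 2 and −0.11 in batch 1. *Itgax*, which encodes the integrin CD11c, lay close to 2 times the floor, with medians of 43.9, 49.1 and 50.9 in intact, 14-day and 4-month PH and 42.6, 47.8 and 43.6 in the POA. Its log2 fold change at 4 months was 0.31 in the PH (SE 0.21, adjusted *P* = 0.888). That value was 0.159 without intact replicate 2, 0.468 without intact replicate 4, 0.141 with the replicate block and 0.0519 in batch 2 alone. In the POA it was −0.04 (SE 0.21, adjusted *P* = 0.976), turning to 0.22 without the first intact library, which held the highest POA value, 79.7.

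*Apoe*, made mainly by astrocytes in brain tissue, encodes the main lipid carrier of the brain. In the POA its values were 45664, 46922, 62376, 54373 and 63087 in intact mice, 46647 to 62700 (median 54725) at 14 days and 52372 to 73102 (median 58799) at 4 months. The groups overlapped, with 2 of 6 libraries at 4 months above the intact range. With SV1 in the fit, the log2 fold change at 4 months was 0.21 (SE 0.06, unadjusted *P* = 0.00415, adjusted *P* = 0.327), and it was 0.24 within batch 1 and 0.14 within batch 2. Between 14 days and 4 months it was 0.16 (SE 0.06, unadjusted *P* = 0.0145, adjusted *P* = 0.885), the 1 gene of the 9 under 0.05 in that comparison, with 2.47% of all genes in that direction. In the PH, *Apoe* was at 51431, 48798, 53038 and 58649 in intact mice and at 46714 to 66884 (median 58777) at 4 months, with a log2 fold change of 0.07 (SE 0.11, adjusted *P* = 0.955).

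*Cd68*, a lysosomal glycoprotein of phagocytes, had the smallest *P* of the set in the PH. Its values there were 243, 252, 193 and 192 in intact mice, 229 to 316 (median 261) at 14 days and 248 to 378 (median 287) at 4 months. At 4 months 5 of 6 libraries lay above all intact libraries, and the log2 fold change was 0.43 (SE 0.13, unadjusted *P* = 0.00441, adjusted *P* = 0.545). The within-batch differences were unequal, 0.16 in batch 1 and 0.69 in batch 2, where both intact libraries were low. In the POA, *Cd68* was at 221, 243, 235, 239 and 300 in intact mice, at 228 to 319 (median 259) at 14 days and at 238 to 351 (median 306) at 4 months. There the log2 fold change at 4 months was 0.30 (SE 0.10, unadjusted *P* = 0.00484, adjusted *P* = 0.337), with 4 of 6 libraries above all intact ones, and the within-batch differences were 0.17 and 0.36.

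*Cst7*, which encodes cystatin F, an inhibitor of lysosomal cysteine proteases and a defining gene of the activated state in amyloid models, was close to the floor throughout. In the PH it was at 42.4, 30.9, 26.2 and 30.8 in intact mice, at 28.3 to 46.7 (median 32.3) at 14 days and at 34.6 to 53.6 (median 41.3) at 4 months, where all 6 libraries were above the intact median and 2 above the intact range. In a fit of all 41565 named genes without a filter, its log2 fold change at 4 months was 0.39 in the PH (SE 0.17, unadjusted *P* = 0.0357, adjusted *P* = 0.879) and −0.01 in the POA (SE 0.15, adjusted *P* = 0.997). POA values were 27.5 to 52.7 in intact mice, 33.9 to 43.6 at 14 days and 28.4 to 42.9 at 4 months.

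*Lgals3*, which encodes galectin-3, a secreted lectin of activated phagocytes, had the largest fitted log2 fold change of the 9 genes, in the POA. Its values were 98.9, 69.4, 88.2, 73.3 and 90.0 in intact mice, 77.5 to 179 (median 95.8) at 14 days and 82.9 to 212 (median 143) at 4 months. At 4 months 4 of 6 libraries lay above all intact libraries and the other two were within their range. The log2 fold change was 0.77 (SE 0.21, a fold of 1.70, unadjusted *P* = 0.00184, adjusted *P* = 0.248), and the within-batch differences were 0.45 and 0.95. In the PH the values were 132, 72.7, 122 and 105 in intact mice and 72.5 to 147 (median 94.0) at 4 months, with a log2 fold change of −0.11 (SE 0.20, unadjusted *P* = 0.580, adjusted *P* = 0.964), which was 0.0298 without the first intact library. The change at 4 months differed between the regions by −0.86, PH minus POA (SE 0.31, unadjusted *P* = 0.00876, adjusted *P* = 1.00). This and the 14-day difference of *Clec7a* were the only differences between regions with an unadjusted *P* under 0.05 among the 9 genes, 0 of which were called, compared with 0.00903% of 22138 genes at 4 months and 0.00452% at 14 days. Over all genes, 1.92% and 1.63% had an unadjusted *P* under 0.05 in the same direction.

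*Spp1*, which encodes osteopontin, a secreted ligand of integrins and CD44, overlapped between all groups. Its values ran from 449 to 691 in the intact PH and from 410 to 836 at 4 months, with a log2 fold change of 0.12 (SE 0.19, adjusted *P* = 0.959), which was 0.0139 without 4-month replicate 2. In the POA they ran from 379 to 673 in intact mice and from 483 to 734 at 4 months, with a log2 fold change of 0.18 (SE 0.14, unadjusted *P* = 0.225, adjusted *P* = 0.758), and all 6 libraries at 4 months lay above the intact median.

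Between 14 days and 4 months the fitted change of all 9 genes in the PH was above 0 but small, from 0.03 to 0.20, with 0 under an unadjusted *P* of 0.05 (2.07% of all genes in the higher direction) and a median of 0.10, where 47.2% of all genes were above 0. In the POA it was above 0 for 7 of 9 (48.9% of all genes), with a median of 0.15, and below 0 for *Clec7a* (−0.20) and *Itgax* (−0.04). Within batches, without SV1, the PH difference was above 0 in both batches for 6 of the 9 genes. It was below 0 in both for 1, *Clec7a* (−0.08 in batch 1 and −0.25 in batch 2). In the POA these counts were 4 and 2. Counted by libraries, 0 of the 9 genes separated the groups completely in the PH at 14 days (0.277% of all genes were higher in this sense) or at 4 months (0.555%), and 0 in the POA at 4 months (0.412%), and none did between 14 days and 4 months in either region (0.127% and 0.0702%). Single libraries moved the 4-month counts. In the PH, *Trem2*, *Tyrobp* and *Cd68* separated completely without 4-month replicate 3, which held the lowest values of its group for each (1.12% of all genes were higher in this sense without it), and *Cd68* did without intact replicate 2 (1.01%). In the POA, *Tyrobp* did without 4-month replicate 3 (0.552%).

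Within each region the 9 genes did not vary as a single block from library to library. After group means and SV1 were removed, the median Pearson correlation over the 36 pairs of genes was 0.157 in the 16 PH libraries and 0.151 in the 17 POA libraries. The receptor and its adaptor were among the closest pairs in both regions, with an *r* for *Trem2* and *Tyrobp* of 0.642 (PH) and 0.568 (POA). *Trem2* and *Clec7a* had the highest *r* in the PH, 0.742, and −0.18 in the POA. *Tyrobp* and *Apoe* had *r* of 0.568 in the POA and −0.02 in the PH. *Spp1* and *Apoe* had *r* of −0.554 in the PH, the lowest of that region, and *Axl* and *Lgals3* had −0.519 in the POA. These are descriptions over libraries that share preparation and unknown depth.

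**Figure D3:**
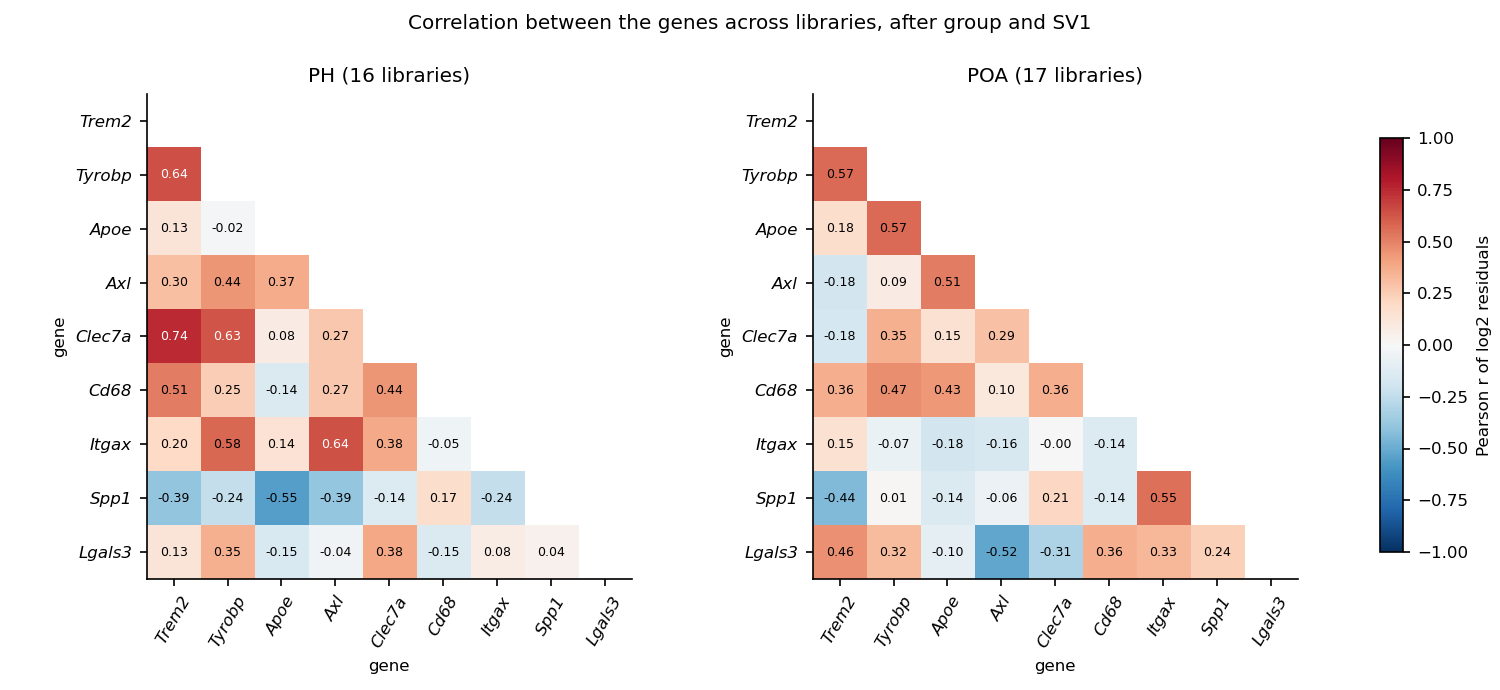
Pearson *r* between the log2 residuals of each pair of the 9 tested genes across libraries, after group means and SV1 were removed, in 16 PH and 17 POA libraries. Red is positive and blue is negative. *Trem2* and *Tyrobp* are positive in both panels (0.642 and 0.568), and *Trem2* with *Clec7a* is positive in the PH only (0.742 and −0.18).

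The genes whose residuals most resembled the mean of the 9 were, in the PH, *B2m* (*r* = 0.927), the light chain of MHC class I, *Tspo* (0.926), a mitochondrial membrane protein used as a glial activation marker in imaging, *Mrps28* (0.898), *1810024B03Rik* (0.898) and *Slamf9* (0.894). In the POA they were the complement genes *C3* (0.873) and *C1qa* (0.865), followed by *Elof1* (0.852), *Rpl28-ps1* (0.833) and *Gm13110* (0.832). They were the highest of all genes tested because they were selected for it.

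Other genes of the same pathways were described from lists written with earlier results of these data known. Of 16 genes of TREM2-TYROBP signaling, 15 were tested and 0 were called in either region at 4 months. An unadjusted *P* under 0.05 was reached in the PH by 1, *Plcg2*, the phospholipase downstream of the receptor (0.28, SE 0.11, adjusted *P* = 0.712), and in the POA by 0, where *Lat2* had the smallest *P* (0.32, SE 0.16, adjusted *P* = 0.601). The medians of the list were 0.06 and 0.05. Of 19 partners of the other genes (receptors, ligands, transporters and proteases that bind or process them), 0 were called, and 3 PH and 6 POA genes had an unadjusted *P* under 0.05, all higher, led by *Lgals3bp*, a galectin-3 ligand, in the PH (0.40, SE 0.11, adjusted *P* = 0.456) and *Itgb2*, the β chain that pairs with CD11c, in the POA (0.28, SE 0.09, adjusted *P* = 0.362). The medians of the partners were 0.18 (PH) and 0.04 (POA). Of 28 other genes of the activated state, 26 (PH) and 27 (POA) were tested and 0 were called, whereas 6 and 7 had an unadjusted *P* under 0.05, all higher. *Ctss*, the lysosomal protease cathepsin S, had the smallest *P* of this list in both, at 0.46 in the PH (SE 0.09, adjusted *P* = 0.114) and 0.34 in the POA (SE 0.07, adjusted *P* = 0.0936). The medians of this list at 4 months were 0.10 and 0.01, so that in the POA the median of the 9 genes, 0.25, was above it. At 14 days the smallest *P* of the 3 lists belonged to *Inpp5d* (0.30), *Lgals3bp* (0.38) and *Ctss* (0.25) in the PH and to *Card9* (0.34), *Lgals1* (0.49) and *Ctss* (0.24) in the POA, the lowest adjusted *P* being 0.732.

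Genes of a list of homeostatic microglia were also mostly above their intact values at 4 months. Besides resting-state markers such as *P2ry12*, the list holds *Itgam*, *Aif1*, *C1qa*, *C1qb* and *C1qc*, which do not mark the resting state alone. The homeostatic list holds 17 genes, all tested. At 4 months 8 (PH) and 11 (POA) had an unadjusted *P* under 0.05 (limma) in the higher direction, and *Fcrls* did in the lower direction in each region. In the PH the 8 were *Cx3cr1*, *Siglech*, *Olfml3*, *Itgam*, *Aif1*, *C1qa*, *C1qb* and *C1qc*, without *P2ry12* and *Tmem119*. Both were among the 11 in the POA, whereas *Cx3cr1* was not. The medians of the list were 0.22 (PH) and 0.15 (POA). *C1qa*, a subunit of complement C1q, was called in the POA (0.43, SE 0.08, adjusted *P* = 0.0428) and was the only gene of any list called in any comparison. In the PH it had a log2 fold change of 0.40 (SE 0.08, adjusted *P* = 0.140). The summed level of the list was 19639 to 20990 in the intact PH and 21083 to 25756 at 4 months, and 20025 to 21553 in the intact POA and 21148 to 25374 at 4 months. The genes were also taken relative to the mean log2 value of this list in the same library, as plain group means without SV1, unlike the fitted changes. On this scale the 4-month difference from intact mice was 0.17 (PH) and 0.27 (POA) for *Tyrobp*, 0.20 and 0.10 for *Cd68*, 0.12 and 0.0090 for *Trem2*, −0.12 and −0.0021 for *Apoe*, and −0.32 and 0.54 for *Lgals3*. It was 0.07 and −0.23 for *Itgax*, −0.39 and 0.15 for *Clec7a*, −0.25 and −0.31 for *Axl*, and −0.12 and 0.06 for *Spp1*, so that 4 (PH) and 6 (POA) of the 9 genes were above 0 on this relative scale. At 14 days the fitted changes of 16 of the 17 homeostatic genes were above 0 in each region, with medians of 0.09 and 0.13, the latter beside the 0.14 of the 9 genes in the POA. The part of these markers in the results was not tested.

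Markers of other cell types were examined in the same way, since border-associated macrophages and blood leukocytes can express many of the 10 genes. For 12 genes of border macrophages the medians at 4 months were −0.11 (PH) and 0.05 (POA), with 0 of 12 and 0 of 11 tested genes under an unadjusted *P* of 0.05. Their summed level was 1109 to 1520 in the intact PH and 1075 to 1377 at 4 months, and 974 to 1284 in the intact POA and 998 to 1578 at 4 months. At 14 days their medians were −0.10 (PH) and 0.15 (POA), with 10 of the 11 POA genes above 0, *F13a1* under an unadjusted *P* of 0.05 (0.41, SE 0.20) and a summed POA level of 1062 to 1642. At 4 months *Lyve1* (−0.30, SE 0.16) and *Siglec1* (0.32, SE 0.19) had the smallest *P* in the respective regions. For circulating leukocytes, 9 (PH) and 6 (POA) of 13 genes were tested, with 0 under 0.05 and medians of 0.14 and 0.08. Their summed level of 508 to 641 in the intact PH and 530 to 751 at 4 months was low, and *Camp*, *Ngp* and *Nkg7* stayed below 2 times the floor in every intact library of both regions. In the POA the sums were 496 to 591 and 514 to 606.

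The medians of the remaining lists at 4 months were 0.07 and 0.02 for astrocytes (PH and POA), −0.03 and −0.04 for neurons, −0.13 and −0.11 for oligodendrocytes, 0.23 and 0.15 for endothelial cells, and 0.08 and 0.20 for fibroblasts and mural cells, with 0 genes called in each. Of 10 endothelial genes, 5 (PH) and 3 (POA) were under an unadjusted *P* of 0.05 in the higher direction, led by *Kdr*, a VEGF receptor (0.59, SE 0.13, adjusted *P* = 0.162), and *Flt1*, another (0.41, SE 0.09, adjusted *P* = 0.146), and 1 and 2 in the lower direction. Of the astrocyte list, which marks the main source of *Apoe*, *Sox9* (0.25, SE 0.08, adjusted *P* = 0.635) in the PH and *S100b* (0.21, SE 0.05, adjusted *P* = 0.194) in the POA had the smallest *P*. *Tubb3* (−0.17) and *Slc17a6* (0.24) among neuronal genes, *Cldn11* (−0.25) and *Ermn* (0.20) among oligodendrocyte genes and *Vtn* (0.30) and *Rgs5* (0.21) among fibroblast and mural cell genes had the smallest *P* of their lists in the PH and the POA.

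**Figure D4:**
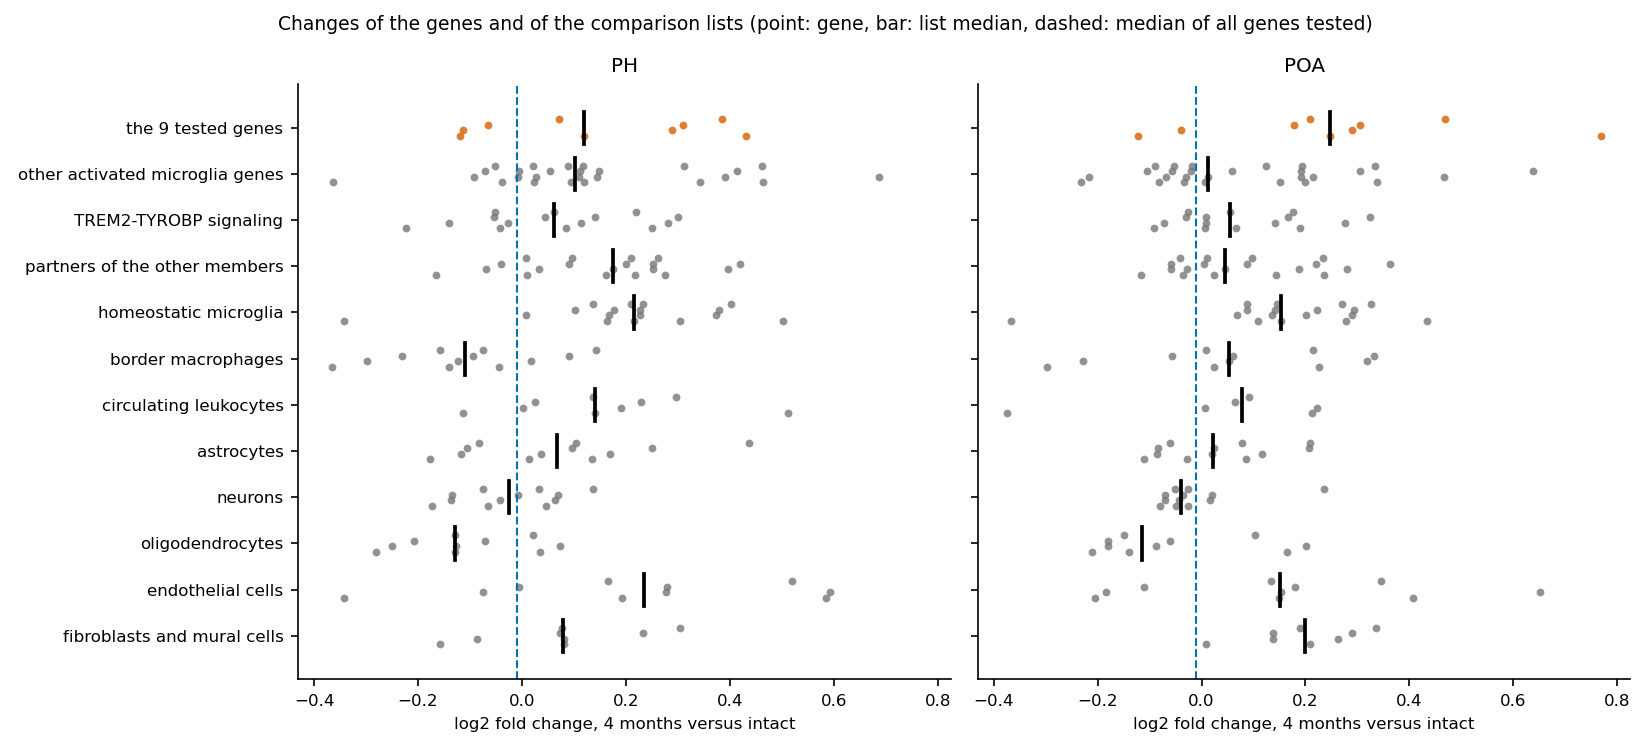
Fitted log2 fold change at 4 months compared with intact mice for the 9 tested genes (orange) and for the genes of 11 comparison lists (gray), in the PH and the POA. Points are genes, black bars are medians of lists, and the dashed line is the median of all genes tested. In the PH the median of the 9 genes is 0.12. It lies below those of the endothelial (0.23), homeostatic (0.22), partner (0.18) and leukocyte (0.14) lists and above those of the rest. In the POA it is 0.25, above those of all the lists, with the homeostatic list at 0.15.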

How the data were processed

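Poly(A) RNA-seq libraries of dissected, flash-frozen mouse PH and POA were analyzed by region and time after OVX, as labelled. The authors pseudoaligned 50-base paired reads with kallisto to the mm39 transcriptome (GENCODE M30) and used tximport, DESeq2 and a surrogate variable, SV1. The deposited values are normalized signal on a linear scale with a floor of 22.1, although the table is named for counts, and the step that made them is not given in the sources used here. Of 42824 entries, the 1259 lacking a gene name were dropped. The planned test was one on counts if the values were counts, and otherwise limma.

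Values were log2-transformed without a pseudocount. The 3 groups of a region were fitted with limma 3.58.1 (R 4.3.3, trend and robust) and SV1, which was estimated by an iteratively reweighted method in 5 rounds, written anew. Calls were made at an adjusted *P* under 0.05 (Benjamini-Hochberg, across every gene tested). Differences between regions were an interaction in a fit of all 33 libraries, without pairing PH and POA libraries. The study describes collecting both regions from its mice. With group and replicate number as a block, the difference was −0.59 for *Clec7a* at 14 days and −0.86 for *Lgals3* at 4 months, and 0 of the 9 genes were called. The fits were tested on simulated data. Whether libraries of a group came from separate mice is not stated, so *P* values measure the spread between these libraries. No library pair of a group shared values (0% identical).

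The 10 genes and all gene lists were chosen with earlier results of these data known. Named outside the 10 are, from each list, the genes called and otherwise the gene with the smallest *P* in a comparison, and the 5 genes per region most correlated with the mean residual of the 9 tested genes. Alternatives were batch, no covariate, SV1 with batch, or the mean of genes at the floor in place of SV1, only the groups compared, the replicate number as a block, no filter, the floor added before log2, each library left out and each batch alone. Promoter windows were RefSeq's (GRCm38.p6). Python 3.11.15 with numpy 2.4.6, pandas 2.3.3 and matplotlib 3.10.9, and statmod 1.5.0, were also used.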

Additional observations from a re-analysis of the deposited data

Results flagged for a closer look

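Among 60 combinations of gene and group, 2 held a library far from the others of its group by Dixon's test, and chance alone gives about 1 in 20. *Trem2* in the intact PH was at 306 in replicate 3, whereas the nearest of the other libraries was at 269. *Clec7a* in the PH at 14 days was at 140 in replicate 5, whereas the nearest was at 77.4. The latter library is the one with the outlying SV1 of 0.785. No explanation was tested for either.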

How the results depend on the processing

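With library depth unknown, precision is limited by the number of libraries, and values near the floor (*Cst7* and *Itgax*, and next *Clec7a*) compress differences. The count of called genes was 0 in all 6 comparisons and both differences between regions under every alternative fit, except that it was 1 in the POA at 4 months without the 4-month replicate 3 (range 0 to 1 over libraries left out; *Tyrobp*, 0.545). Counts of genes with no overlap, in either direction, ranged over libraries left out from 0 to 1 in the PH at 14 days, from 0 to 3 in the PH at 4 months and from 0 to 1 in the POA at 4 months, with the changes arising without the intact PH replicate 2, the 4-month PH replicate 3 and the 4-month POA replicate 3. The 1 gene in the PH at 14 days was *Lgals3*, which was lower after OVX. Its highest 14-day value was 104.99 and its lowest remaining intact value was 105.03. The share of all genes lower in this sense was not computed. The median of the 9 genes in the PH at 14 days was 0.139 in batch 2 alone and ranged from −0.0444 to 0.112 over libraries left out (0.107 without intact replicate 1, 0.112 without 14-day replicate 4), compared with −0.01 in the main analysis. At 4 months, signs changed in batch 2 alone for *Clec7a* (0.143) and *Axl* (0.0512) in the PH and for *Itgax* (0.236) in the POA. Over libraries left out, *Clec7a* ranged from −0.206 to 0.0501, *Lgals3* from −0.289 to 0.0298 and *Apoe* from −0.00701 to 0.121 in the PH, and *Itgax* from −0.140 to 0.222 in the POA. *Clec7a* changed sign in the PH without intact replicate 1 (0.0501) or 4-month replicate 3 (0.00469), and *Itgax* in the POA without intact replicate 1 (0.222) or 4-month replicate 2 (0.0233). *Lgals3* did so without intact PH replicate 1 and *Apoe* without 4-month PH replicate 3. None of the genes whose sign changed was called, and the cause was not tested. Without the outlying PH library at 14 days, *Trem2* at 14 days was 0.247, and *Tyrobp* and *Cd68* at 4 months were 0.374 and 0.416.

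Same-numbered libraries of different groups correlated above 0.1 in 9 of 14 PH pairs and 14 of 16 POA pairs, and those of the same group and number in the 2 regions in 14 of 16 pairs. The numbers were not taken as pairs, which would need every pair above 0.1. Both POA pairs below it joined libraries of different batches, and all 14 POA pairs of the same batch passed. Libraries of the same batch with different numbers were as close in the POA (median *r* of 0.275, compared with 0.274 for the same number; 0.146 and 0.193 in the PH), and 9 of 32 best matches there, and 11 of 28 in the PH, were with the same number. With the replicate block, 0 genes were called in each comparison, and the medians at 4 months were 0.141 (PH) and 0.198 (POA). At 14 days in the POA the median was 0.0461 with the block, and 0.0247 with the mean of the floor genes in place of SV1, and *Clec7a* was at 0.301 with the block.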
